A study of Mus musculus with 4 samples.

Results

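Most of the listed genes of ribosome assembly lay higher in PRAK-deficient mouse Th17 cells than in wild-type (WT) cells, while Myc did not. The genes were chosen with earlier results of these data known. The difference was larger in KO mouse 1 than in KO mouse 2, with median log2 ratios to the WT mean of 0.94 and 0.32. The set holds 31 genes, Myc and 30 nucleolar and ribosome assembly genes, found by symbol among the 17921 genes of the deposited table. All 31 were present and passed the filter on low counts, which left 12680 genes. Of the 31, 30 had a positive log2 fold change of KO over WT, and the median was 0.68, beside 0.02 over all genes tested. In 25 of 31 both KO libraries lay above both WT libraries, which was so for 31.7% of all genes tested. Only Utp20, Rrp9 and Nolc1 rose at an adjusted p under 0.05 (edgeR), 3 of 31 against 5.14% of all genes tested called higher. No member fell, against 8.23% of all genes called lower, and at an unadjusted p under 0.05 the numbers were 21 higher, against 15.1% of all genes tested, and 0 lower. With DESeq2, a second tool for counts, 16 members were called higher and 0 lower, against 7.66% and 10.1% of the genes it tested.

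The groups were PRAK KO, 2 mice, and WT, 2 mice, with 1 RNA-seq library per mouse. Naive CD4+ T cells enriched from each mouse were driven towards the Th17 fate in culture, and the whole culture was harvested at 72 h (day 3) without a sort that the labels mention. PRAK is a kinase downstream of p38, encoded by Mapkapk5. The labels do not state the strain, the age and the part of the gene that was removed. The libraries are called KO 1, KO 2, WT 1 and WT 2 after the mouse numbers in the labels.

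MYC is a transcription factor that binds the E-box, the sequence CACGTG, together with its partner MAX, and it drives growth of activated T cells. Making a ribosome starts in the nucleolus, where RNA polymerase I copies the ribosomal DNA into a long precursor RNA. Small nucleolar RNPs (snoRNPs) modify that RNA, and sets of assembly factors cut and fold it into the small and the large subunit. Many of the genes for these factors are known MYC targets, and naive T cells raise them together when activated.

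Total expected counts were 20027775 and 19418012 in KO 1 and KO 2 and 20125124 and 19853344 in WT 1 and WT 2. The KO libraries were less alike than the WT libraries (Pearson r across genes of 0.974 between the KO libraries and 0.992 between the WT libraries, on log2 CPM; genes are not independent replicates). Levels are given in CPM (counts scaled by library size and TMM) unless TPM is named. Mapkapk5 stood at 20.04 and 21.6 CPM in KO 1 and KO 2, against 35.6 and 38.4 CPM in WT 1 and WT 2, and fell by 0.83 on the log2 scale (adjusted p = 0.0194, edgeR). That call was lost without WT 1 (adjusted p = 0.0918) or without WT 2 (0.169). Among T cell markers, Cd4 stood at 516 and 940 CPM in KO and 739 and 854 CPM in WT, and Cd5 rose to 581 and 588 CPM in KO, against 319 and 289 CPM in WT (log2 fold change 0.94, adjusted p = 0.0140), a call lost when either WT library was left out. Cd5 was the 1 gene of the 6 T cell markers with a positive value, and their median log2 fold change was -0.16. Il17f, a Th17 cytokine, stood at 1994 and 637 CPM in KO 1 and KO 2, against 2224 and 1987 CPM in WT 1 and WT 2. Il17a stood at 643 and 237 CPM in KO, against 474 and 418 CPM in WT, and neither cytokine gene was called. Il23r, the receptor for IL-23, fell to 12.7 and 5.52 CPM in KO, against 31.2 and 31.1 CPM in WT (-1.77, adjusted p = 0.0390), a call also lost when either WT library was left out. Ccr6, a chemokine receptor of Th17 cells, rose to 53.2 and 45.4 CPM in KO, against 22.9 and 22.5 CPM in WT (1.12, adjusted p = 0.00963).

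Markers of other cells moved with genotype as well. All 9 myeloid markers were detected in every library, 5 of them rose, and their sum was 121 and 293 CPM in KO, against 59.2 and 76.7 CPM in WT. The count was 2 without WT 1 and 9 without KO 1, and DESeq2 called 9. Markers of CD8 T and NK cells summed to 366 and 297 CPM in KO, against 62.1 and 144 CPM in WT, with 1 of 5 tested called higher (0 without WT 1 and 2 without WT 2), and the NK gene Ncr1 was at 0 in both WT libraries and at or below 0.0497 CPM in KO. B cell markers summed to 103 and 86.9 CPM in KO, against 26.3 and 69.5 CPM in WT, with 1 of 5 called higher (4 without WT 2). The 4 erythroid markers summed to no more than 1.19 CPM in KO and 6.59 CPM in WT, and Hbb-bs was at 0 in every library but WT 2. The part of these cells in the results below was not tested. In bulk RNA, fewer cells of a type and less RNA per cell cannot be told apart.

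Short promoter windows of the members were searched for the E-box that MYC binds. RefSeq promoter windows on GRCm38.p6, running from 250 bases before a start site to 50 bases after it, were found for 25 of the 31 genes, in 28 windows. Myc, Npm1, Fbl, Rrp12, Bop1 and Rrs1 had no entry. CACGTG, which reads the same on both strands, was in 8 of the 28 windows (28.6%). It was in 9.79% of the 12967 windows of genes tested here and in 7.15% of the 32851 windows of the whole table. The windows differ in base composition, with a median of 57.7% G and C for the members, 60.3% for genes tested and 52.7% for the whole table. The 8 genes were Utp20, Nop2, Mybbp1a, Pno1, Tsr1, Wdr43, Pes1 and Eif4a1. A match of letters is not a measured binding site. Sequence outside the windows was not searched, so a gene without a match here may still carry the motif elsewhere.

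Some of the 8 windows are shown because their genes span the range of KO over WT differences, from Utp20, with the largest of the 31, to Pes1 and Eif4a1, which lay close to WT. The capitals mark CACGTG. The windows lie at chr10:88826765-88827064 (minus strand) for Utp20, chr6:125131633-125131932 (plus) for Nop2 and chr11:72441077-72441376 (plus) for Mybbp1a. Those of Pes1 and Eif4a1 lie at chr11:3963725-3964024 (plus) and chr11:69672374-69672673 (minus).
Utp20: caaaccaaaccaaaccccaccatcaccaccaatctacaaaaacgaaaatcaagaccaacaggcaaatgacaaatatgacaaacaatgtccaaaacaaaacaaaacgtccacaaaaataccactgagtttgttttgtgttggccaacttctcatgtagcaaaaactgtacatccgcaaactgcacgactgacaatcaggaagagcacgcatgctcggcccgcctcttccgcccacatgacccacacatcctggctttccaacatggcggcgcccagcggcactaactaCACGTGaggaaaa
Nop2: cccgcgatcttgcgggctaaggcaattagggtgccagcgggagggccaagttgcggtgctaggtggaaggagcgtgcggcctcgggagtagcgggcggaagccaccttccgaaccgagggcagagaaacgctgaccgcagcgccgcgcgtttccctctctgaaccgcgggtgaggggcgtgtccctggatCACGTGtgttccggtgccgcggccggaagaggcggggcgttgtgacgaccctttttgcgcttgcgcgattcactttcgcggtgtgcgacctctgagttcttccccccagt
Mybbp1a: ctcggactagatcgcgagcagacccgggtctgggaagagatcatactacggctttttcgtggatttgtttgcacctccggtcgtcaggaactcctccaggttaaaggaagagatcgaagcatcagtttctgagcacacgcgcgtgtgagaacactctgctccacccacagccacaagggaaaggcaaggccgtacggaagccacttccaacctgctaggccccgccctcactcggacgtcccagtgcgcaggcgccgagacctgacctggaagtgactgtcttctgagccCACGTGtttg
Pes1: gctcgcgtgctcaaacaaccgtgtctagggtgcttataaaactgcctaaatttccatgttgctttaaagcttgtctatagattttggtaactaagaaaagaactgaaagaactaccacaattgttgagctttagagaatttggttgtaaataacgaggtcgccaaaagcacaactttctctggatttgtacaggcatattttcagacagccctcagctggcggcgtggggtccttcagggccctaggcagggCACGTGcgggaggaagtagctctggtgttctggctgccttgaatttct
Eif4a1: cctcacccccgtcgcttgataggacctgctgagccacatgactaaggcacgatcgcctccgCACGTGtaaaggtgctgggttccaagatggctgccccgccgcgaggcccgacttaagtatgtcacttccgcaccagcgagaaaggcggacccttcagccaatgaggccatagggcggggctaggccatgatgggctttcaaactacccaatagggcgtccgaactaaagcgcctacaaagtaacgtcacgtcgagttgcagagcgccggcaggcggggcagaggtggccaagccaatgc
Counting the start site as base 1, the motif begins at base 38 of the Utp20 transcript, base 41 of Mybbp1a and base 3 of Pes1, and it begins 60 bases before the start of Nop2 and 189 bases before that of Eif4a1. In Pno1, Tsr1 and Wdr43 it begins at bases 38, 25 and 18. The median log2 fold change was 0.58 over the 8 genes with the motif and 0.69 over the 17 with a window and no motif. Among them 1 of 8 and 2 of 17 were called higher by edgeR, beside 5.14% of all genes tested. Whether the motif bears on the difference between genotypes was not tested. Utp20 has the motif, whereas none was found in the windows of Nolc1 and Rrp9.

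Myc itself did not differ beyond its spread. It stood at 563 CPM in KO 1 and 404 CPM in KO 2, against 489 CPM in WT 1 and 475 CPM in WT 2. Both WT values lay between the KO values, and edgeR put the log2 fold change at 0.00 (SE 0.19, adjusted p = 0.992). Per length it was the member with the third highest mean, at 472 and 317 TPM in KO and 376 and 354 TPM in WT. Its sign depended on the library left out, with -0.26 without KO 1 and 0.22 without KO 2, neither of them called, and it was 0.10 when libraries were scaled by total count alone. The Myc gene lies at chr15:61985341-61990361 on GRCm38.p6, and the 3 members that rose lie at chr10:88746607-88826814 (Utp20), chr19:46075847-46085543 (Nolc1) and chr9:106477309-106485415 (Rrp9).

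**Figure D1:**
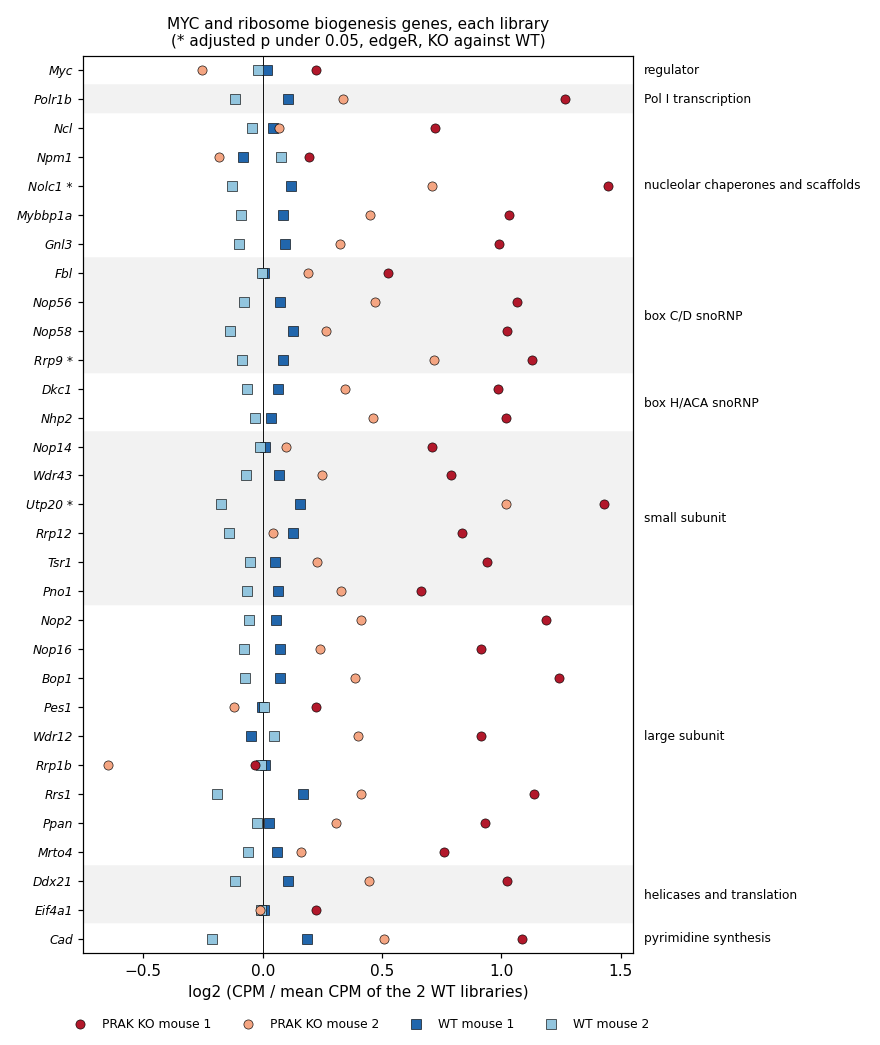
Level of each of the 31 genes in each library, as log2 of its CPM over the mean of the WT libraries, grouped by role (circles, KO; squares, WT; dark, mouse 1; light, mouse 2). KO 1 lies right of KO 2 for all 31 genes, and 25 genes have both circles right of both squares.

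Both KO mice shared the direction, but not the size. KO 1 lay above KO 2 for all 31 genes, where 49.8% of the 12588 genes tested with a count in every library did so. The median log2 ratio of KO 1 to the WT mean was 0.94 over the members, and that of KO 2 to the WT mean was 0.32. Over all those genes both medians were 0.00, a value that the TMM scaling largely sets. KO 1 lay above both WT libraries for 30 of 31 genes and KO 2 for 25 of 31, beside 45.4% and 44% of all genes. The KO libraries were also farther apart than the WT libraries for every member, beside 74.8% of all those genes, by a median log2 ratio of 0.60 between KO 1 and KO 2 and 0.13 between WT 1 and WT 2. WT 1 was the higher WT library for 28 of 31 members, beside 48.2% of all genes. The sum over the 31 genes was 8349 TPM in KO 1 and 5621 TPM in KO 2, against 5309 TPM in WT 1 and 5149 TPM in WT 2.

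Depending on the library left out, the call count moved widely although the direction of most genes did not. Without KO 1 the median log2 fold change of the members was 0.32, with 15 called higher (17.3% of all genes) and 1, Rrp1b, called lower (18.7%). Without KO 2 it was 0.93, with 26 called higher (22.2%) and 0 lower (24%). Without WT 1 it was 0.69 and without WT 2 it was 0.60, each with Utp20 as the single call (1.59% and 1.85% of all genes higher, and 3.87% and 3.43% lower). Scaling by library size alone, by RLE or by the upper quartile called 4, 3 and 3 members higher, beside 7.24%, 5.09% and 5.21% of all genes. No low-count filter gave 3 and limma on log2 TPM gave 2, beside 3.93% and 4.91%. None of these 5 fits called a member lower, beside 6.81%, 8.2%, 7.77%, 6.51% and 6.1% of all genes. A fit with 1 library in a genotype assumes that the lone library varies as the others do.

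**Figure D2:**
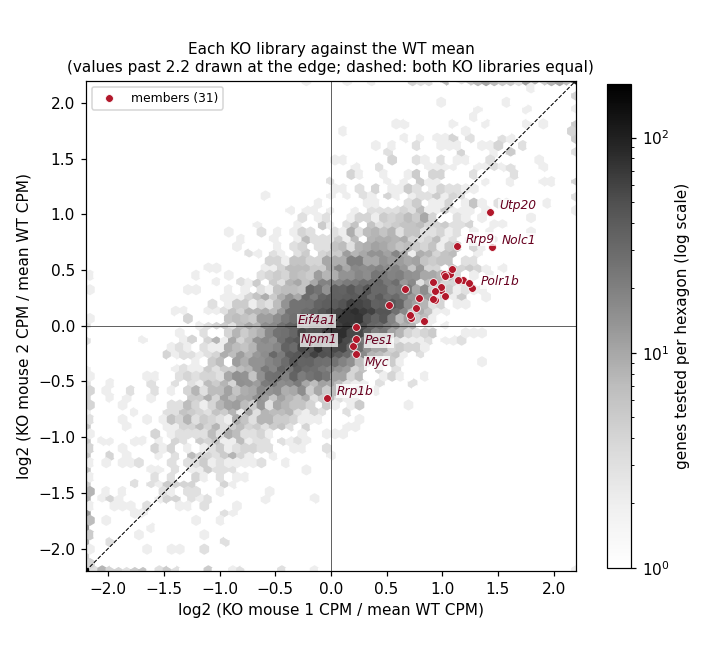
Each KO library against the WT mean, on log2 scales, for the 31 members (red) over the density of the genes tested with a count in every library (grey). The members sit below the dashed line of equal KO libraries, with medians of 0.94 on the horizontal and 0.32 on the vertical axis.

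RNA polymerase I makes the ribosomal precursor RNA, and Polr1b, its subunit of the catalytic core, stood at 90.3 CPM in KO 1 and 47.4 CPM in KO 2, against 40.5 CPM in WT 1 and 34.7 CPM in WT 2. Both KO values were higher, and KO 1 was 1.91 times KO 2, the widest gap between KO libraries of the 31 genes. Its log2 fold change of 0.87 had a standard error of 0.31 and did not pass (adjusted p = 0.122, edgeR). Of 19 other genes of the polymerase I machinery none was called by edgeR, although 15 had a positive value and the median was 0.16. At an unadjusted p under 0.05, 7 were higher and 1 lower, beside 15.1% and 16.6% of all genes tested. DESeq2 called 4 higher and 0 lower, beside 7.66% and 10.1% of the genes it tested. Among the 19 genes Ubtf, the factor that binds ribosomal DNA, stood at 227 and 153 CPM in KO, against 119 and 102 CPM in WT. Its log2 fold change was 0.78 (adjusted p = 0.0698, edgeR). Rrn3, which recruits the polymerase to its promoter, stood at 109 and 91.0 CPM in KO, against 69.6 and 66.0 CPM in WT (0.56, adjusted p = 0.0507). These 2 were chosen after their values were seen.

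Among 5 nucleolar chaperones and scaffolds 1 rose and 4 did not pass by edgeR, beside 5.14% of all genes tested called higher. Of these 5, 3 were higher at an unadjusted p under 0.05 (edgeR), beside 15.1% of all genes tested. With DESeq2 3 of the 5 were called higher, beside 7.66% of the genes it tested. Nolc1 (Nopp140), which carries snoRNPs and links the nucleolus to Cajal bodies, stood at 392 CPM in KO 1 and 235 CPM in KO 2, against 156 CPM in WT 1 and 131 CPM in WT 2. The groups did not overlap, and KO averaged 314 ± 111 CPM and WT 144 ± 17.7 CPM (SD, n = 2 each), with edgeR putting the log2 ratio at 1.12 (SE 0.26, adjusted p = 0.0478). The call was lost without WT 1 (adjusted p = 0.0648), without WT 2 (0.148) and with limma on log2 TPM (0.0686). Mybbp1a, a nucleolar partner of MYB proteins, stood at 616 and 412 CPM in KO, against 320 and 283 CPM in WT. Gnl3 (nucleostemin), a nucleolar GTPase, stood at 118 and 74.1 CPM in KO, against 63.1 and 55.3 CPM in WT. Both genes had higher values in both KO libraries, with log2 fold changes of 0.77 (adjusted p = 0.0773) and 0.69 (0.111). The abundant members of this class moved less. Ncl (nucleolin) stood at 1370 CPM in KO 1 but 871 CPM in KO 2, against 856 and 807 CPM in WT. Npm1 (nucleophosmin) stood at 1576 and 1211 CPM in KO, against 1301 and 1452 CPM in WT, where the WT values lay between those of KO. Npm1 had the highest level per length of the 31 genes, between 1674 and 2341 TPM in KO and between 1761 and 1907 TPM in WT.

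Box C/D snoRNPs place methyl groups on ribosomal RNA. Their 4 members all had both KO libraries above both WT libraries, which was so for 31.7% of all genes tested. Rrp9, a protein of the U3 snoRNP that takes part in cutting the precursor, rose to 77.8 CPM in KO 1 and 58.5 CPM in KO 2, against 37.7 CPM in WT 1 and 33.5 CPM in WT 2. Its mean was 68.1 ± 13.7 CPM in KO and 35.6 ± 2.99 CPM in WT (SD, n = 2 each), with a log2 fold change of 0.94, a standard error of 0.17 and an adjusted p of 0.0280 (edgeR). Without WT 1 the adjusted p was 0.0508 and without WT 2 it was 0.114. Nop56 and Nop58 are the paired core proteins of these particles. Nop56 stood at 415 and 275 CPM in KO, against 209 and 188 CPM in WT, and Nop58 stood at 189 and 112 CPM in KO, against 101 and 84.4 CPM in WT. Their log2 fold changes were 0.80 (adjusted p = 0.0698) and 0.69 (0.142). Fbl (fibrillarin), the methyltransferase of the same particle, stood at 240.4 and 191 CPM in KO, against 168 and 167 CPM in WT, a smaller log2 difference of 0.37 (adjusted p = 0.159).

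The H/ACA snoRNPs turn uridines of ribosomal RNA into pseudouridines. Dkc1 (dyskerin), their enzyme, stood at 149 and 95.8 CPM in KO, against 78.7 and 72.04 CPM in WT. Nhp2, a core protein of the same particle, stood at 144 and 98.4 CPM in KO, against 73.0 and 69.7 CPM in WT. Neither gene overlapped between genotypes, with KO above WT as in 31.7% of all genes tested. The log2 fold changes were close to each other at 0.70 (adjusted p = 0.0974, edgeR) and 0.77 (0.0613). Of 14 other genes of snoRNP assembly 1 rose, Snu13, a protein that binds the kink of box C/D RNAs. It stood at 101 and 93.6 CPM in KO, against 61.0 and 63.2 CPM in WT (log2 fold change 0.65, adjusted p = 0.0238). The median of that list was 0.24, and 5.14% of all genes tested were called higher. Snu13 was not called when either WT library was left out, and the list then held no call. The list median was 0.11 without KO 1 and 0.26 without KO 2. DESeq2 called 4 higher and 0 lower, beside 7.66% and 10.1% of the genes it tested.

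In the small subunit group 1 of 6 rose by edgeR, beside 5.14% of all genes tested called higher. Of these 6, 4 were higher at an unadjusted p under 0.05 (edgeR), beside 15.1% of all genes tested. With DESeq2 1 of the 6 was called higher, beside 7.66% of the genes it tested. Utp20, a large scaffold protein of small subunit assembly, rose to 107.9 CPM in KO 1 and 81.2 CPM in KO 2, against 44.8 CPM in WT 1 and 35.5 CPM in WT 2. Its KO mean of 94.6 ± 18.9 CPM was 2.36 times the WT mean of 40.1 ± 6.55 CPM (SD, n = 2 each). On the log2 scale edgeR gave 1.24 (SE 0.19, adjusted p = 0.0187), and the gene was called in each of the 4 fits that left out a library. Per length it was the lowest of the 31 genes, at 24.3 and 17.1 TPM in KO, against 9.25 and 7.10 TPM in WT. The other genes of this group had smaller differences and did not pass. Wdr43, a component of the early particle, stood at 181 and 125 CPM in KO, against 110.1 and 100.01 CPM in WT. Pno1, an RNA-binding factor of late maturation, stood at 74.8 and 59.3 CPM in KO, against 49.4 and 45.2 CPM in WT. Both had higher values in both KO libraries (log2 fold changes of 0.54 and 0.51, adjusted p = 0.130 and 0.0881). Nop14 stood at 102 and 66.7 CPM in KO, against 62.9 and 61.9 CPM in WT. Rrp12, which helps pre-ribosomes leave the nucleus, stood at 110.3 and 63.7 CPM in KO, against 67.5 and 56.04 CPM in WT. For Nop14 and Rrp12 it was KO 1 that stood apart, and the Rrp12 value of KO 2 lay between those of WT. Tsr1, a late factor of the small subunit, stood at 114 and 69.4 CPM in KO, against 61.5 and 57.1 CPM in WT. In the GENCODE annotation 32.3% of its exon bases overlap those of Srr on the opposite strand, and Srr stood at 14.1 and 22.8 CPM in KO, against 18.05 and 19.1 CPM in WT, so without strand its reads cannot be assigned with certainty.

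The large subunit group of 9 held no call by edgeR, beside 5.14% of all genes tested called higher and 8.23% lower. At an unadjusted p under 0.05, 6 genes were higher, beside 15.1% of all genes tested. DESeq2 called 5 higher, beside 7.66% of the genes it tested. The PeBoW complex, which processes the large subunit RNA, was split. Bop1 stood at 184 and 102 CPM in KO, against 81.7 and 73.8 CPM in WT, and Wdr12 stood at 48.1 and 33.7 CPM in KO, against 24.7 and 26.4 CPM in WT. Both lay higher in both KO libraries, with log2 fold changes of 0.88 (adjusted p = 0.100) and 0.68 (0.0814). Pes1, the other subunit of that complex, stood at 170 and 134 CPM in KO, against 145 and 146 CPM in WT. Its WT values thus lay between those of KO (0.06, adjusted p = 0.811, edgeR). The difference among the 3 subunits was not tested. Per length Pes1 stood at 141 and 104 TPM in KO and 111 and 107 TPM in WT. Bop1 stood at 149 and 77.1 TPM in KO and 60.9 and 53.2 TPM in WT.

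Nop2, a methyltransferase of large subunit RNA, stood at 209.8 and 123 CPM in KO, against 95.7 and 88.5 CPM in WT. Rrs1, which brings the 5S RNA into the particle, stood at 69.1 and 41.8 CPM in KO, against 35.3 and 27.5 CPM in WT. Their log2 fold changes of 0.85 and 0.82 came with adjusted p of 0.0883 and 0.104. Nop16 stood at 87.2 and 54.7 CPM in KO, against 48.8 and 43.9 CPM in WT. Ppan, a factor of large subunit assembly, stood at 139 and 90.2 CPM in KO, against 74.1 and 71.5 CPM in WT. Mrto4, which holds the place of a stalk protein during assembly, stood at 61.4 and 40.5 CPM in KO, against 37.8 and 34.7 CPM in WT. In all of these both KO values were the higher ones, which was so for 31.7% of all genes tested. Rrp1b, a nucleolar protein that targets a phosphatase, went the other way, at 163 and 106 CPM in KO, against 167 and 166 CPM in WT. It was the 1 member with both KO libraries below both WT libraries (31.4% of all genes tested), with a log2 fold change of -0.31 (adjusted p = 0.375), and KO 1 lay close to WT.

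Ddx21, an RNA helicase that acts in polymerase I transcription and RNA processing, stood at 453 and 303 CPM in KO, against 240.2 and 206 CPM in WT (log2 fold change 0.76, adjusted p = 0.0791). Eif4a1, the helicase that opens mRNA for translation, stood at 1025 and 871 CPM in KO, against 883 and 876 CPM in WT (0.11, adjusted p = 0.668). The Ddx21 groups did not overlap, whereas those of Eif4a1 did. Cad, the enzyme that starts pyrimidine synthesis, stood at 331 and 222 CPM in KO, against 177 and 135 CPM in WT (0.83, adjusted p = 0.0794). Cad was the member with the widest gap between WT libraries, WT 1 being 1.32 times WT 2, and both KO values lay above that range.

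**Figure D3:**
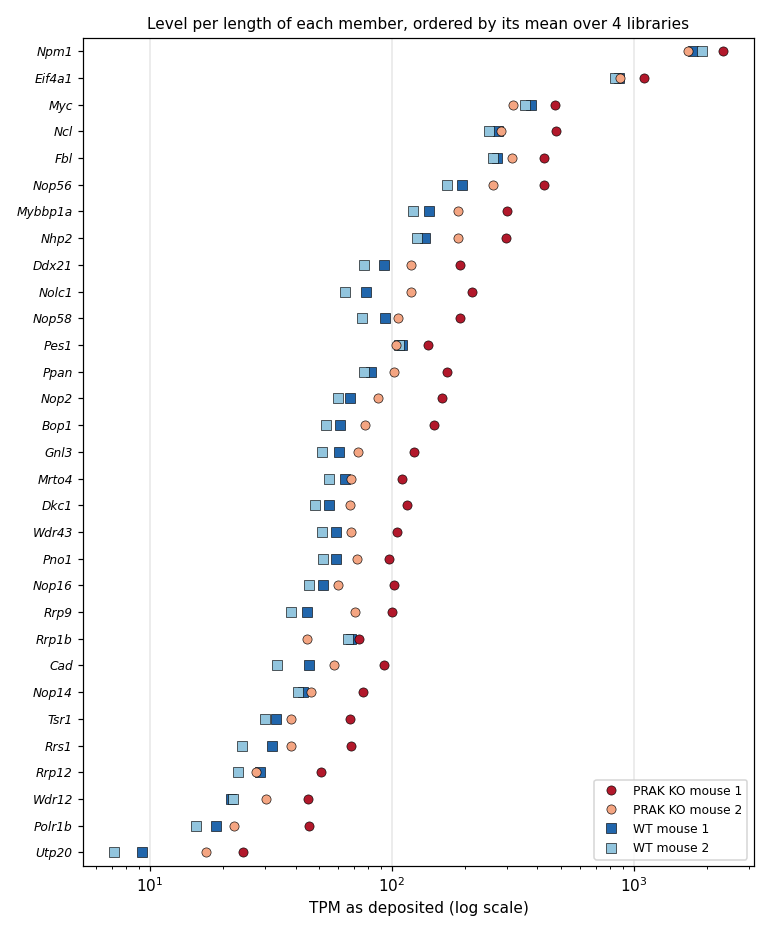
TPM of each member in each library on a log axis, ordered by the mean over all 4 libraries (circles, KO; squares, WT). Npm1 leads and Utp20 is last, and 25 of the 31 genes have a mean between 40 and 500 TPM.

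The members with the highest levels had small differences. Npm1, Eif4a1 and Myc led the order per length and had log2 fold changes of 0.02, 0.11 and 0.00, while Utp20 and Polr1b, at the low end, had 1.24 and 0.87. Across the 31 genes Spearman's rho between mean TPM and log2 fold change was -0.32. This is a description across genes that share 4 libraries. Without Npm1 and Eif4a1 the members summed to 4906 and 3070 TPM in KO, against 2678 and 2405 TPM in WT.

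Several members also host snoRNAs. GENCODE M21, on the same build, places 26 snoRNA genes on the same strand inside 9 of the 31 genes (29%), beside 1.78% of the 12371 protein-coding genes tested that could be matched. The hosts were Nop56, with 5, Nop58, with 4, Ncl, Gnl3, Wdr43 and Eif4a1, with 3 each, Tsr1 and Ppan, with 2 each, and Dkc1, with 1. Their log2 fold changes ran from 0.11 for Eif4a1 to 0.80 for Nop56. The snoRNAs themselves were not analysed here. The 31 genes lie on 15 chromosomes, 7 of them on chromosome 11.

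Of 54 other genes listed for the small subunit 7 rose, 1 fell and 46 did not pass. Their median log2 fold change was 0.45, with 46 positive values. Of 56 other large subunit genes 5 rose, 0 fell and 51 did not pass, with a median of 0.36 and 49 positive values. Of all genes tested 5.14% were called higher and 8.23% lower, and 51.8% had a positive value. At an unadjusted p under 0.05 the large subunit list had 25 higher and 0 lower genes, and DESeq2 called 13 and 0. For the small subunit list they were 28 and 3 at that p, and DESeq2 called 20 and 1. Over all genes the shares were 15.1% and 16.6% at that p, and 7.66% and 10.1% with DESeq2. In both lists most calls were lost when either WT library was left out, and call counts moved widely without a KO library. The small subunit median was 0.24 without KO 1, 0.62 without KO 2, 0.48 without WT 1 and 0.42 without WT 2. That of the large subunit list was 0.19, 0.57, 0.41 and 0.34 in the same order.

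Mdn1, the giant ATPase that strips factors from the large subunit, rose to 149 and 113 CPM in KO, against 63.4 and 54.004 CPM in WT (log2 fold change 1.16, adjusted p = 0.0170). Mak16 (0.69, adjusted p = 0.0306), Noc3l (0.81, 0.0321) and Urb1 (0.88, 0.0352) also rose. In the small subunit list Krr1 rose to 64.5 and 69.5 CPM in KO, against 44.8 and 43.1 CPM in WT (0.61, adjusted p = 0.0287), and Mphosph10 (0.64, 0.0348) and Nol11 (0.70, 0.0349) rose as well. In Krr1, unlike the 31 members, KO 2 was the higher KO library. Aamp, which was counted in that list, fell to 95.02 and 98.3 CPM in KO, against 145 and 153 CPM in WT (-0.62, adjusted p = 0.0237, edgeR). Whether Aamp belongs with factors of the small subunit was not tested.

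**Figure D4:**
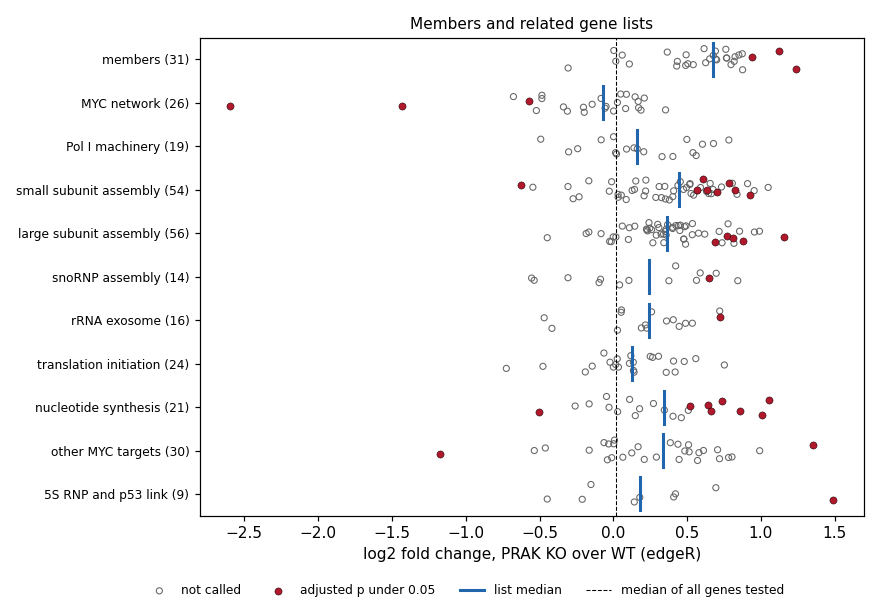
Log2 fold change of KO over WT for the 31 members and 10 related lists, 1 point per gene (filled, adjusted p under 0.05; bar, list median; dashed line, median of all genes tested). The member median is 0.68, those of the subunit assembly lists are 0.45 and 0.36, and that of the MYC network is -0.07.

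Nucleotide synthesis had 7 of 21 genes higher and 1 lower, beside 5.14% and 8.23% of all genes tested. The median log2 fold change of the list was 0.35. Tyms, which makes thymidylate, rose to 105 and 93.9 CPM in KO, against 51.8 and 47.1 CPM in WT (1.01, adjusted p = 0.0102). Nme1, a nucleoside diphosphate kinase, rose to 169 and 120.4 CPM in KO, against 74.4 and 64.7 CPM in WT (1.05, adjusted p = 0.0261). Adsl of purine synthesis (0.66, adjusted p = 0.0292) and Umps, which completes uridine synthesis after Cad (0.74, 0.0388), rose too. Most calls of this list were lost when either WT library was left out. Its median was 0.13 without KO 1, 0.46 without KO 2, 0.34 without WT 1 and 0.35 without WT 2.

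Among 30 other MYC targets 1 rose and 1 fell, beside 5.14% and 8.23% of all genes tested, with a median of 0.34. Srm, the spermidine synthase, rose to 248 and 179 CPM in KO, against 90.8 and 76.5 CPM in WT (log2 fold change 1.35, adjusted p = 0.0146). Nampt, the enzyme of NAD salvage, fell to 75.1 and 63.1 CPM in KO, against 153 and 159 CPM in WT (-1.17, adjusted p = 0.00827). The median of these targets was -0.03 without KO 1 and 0.48 without KO 2, and the calls moved with the KO library left out. DESeq2 called 7 higher and 2 lower, beside 7.66% and 10.1% of the genes it tested. Of the 7 proliferation markers 1 had a positive value, and their median was -0.16 (0 called by edgeR and by DESeq2, and 1 higher and 0 lower at an unadjusted p under 0.05). They summed to 2701 and 2077 CPM in KO, against 2745 and 2601 CPM in WT, and all 7 were higher in KO 1 than in KO 2. The sign of their median depended on the KO library, with -0.48 and 5 called lower without KO 1, and 0.05 and 1 called higher without KO 2.

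In the network of MYC partners and regulators 0 of 26 rose, 3 fell and 23 did not pass. The shares over all genes tested were 5.14% higher and 8.23% lower. In this network 1 gene was higher and 7 lower at an unadjusted p under 0.05 (edgeR), beside 15.1% and 16.6% of all genes tested. With DESeq2 0 were called higher and 3 lower, beside 7.66% and 10.1% of the genes it tested. The network had a median log2 fold change of -0.07 (0.03 with library size alone). Mxi1, a partner of MAX that opposes MYC, fell to 79.8 and 75.9 CPM in KO, against 217 and 202 CPM in WT (-1.43, adjusted p = 0.00388, edgeR). Neither KO library overlapped WT, and the KO libraries were close to each other. Pim3, a kinase, fell to 75.2 and 81.1 CPM in KO, against 118 and 115 CPM in WT (-0.57, adjusted p = 0.0305). Mycl, a relative of Myc, was near silent at 0.242 and 0.149 CPM in KO, against 1.28 and 1.15 CPM in WT (-2.60, adjusted p = 0.0295). Max stood at 117 and 109 CPM in KO, against 107 and 112 CPM in WT (0.05, adjusted p = 0.791, edgeR). Of the other antagonists Mnt had -0.48 (0.101) and Mxd4 had -0.68 (0.143). Mxd3 had -0.20 (0.434), whereas Mxd1 and Mga lay close to WT at -0.05 (0.866) and -0.06 (0.788). Max and these antagonists were named after their values were seen. Mycl was not called by DESeq2 (adjusted p = 0.0593), nor when either WT library was left out. Most of the 3 calls of the network were lost when either WT library was left out. Its median was -0.22 without KO 1, -0.03 without KO 2, -0.04 without WT 1 and -0.12 without WT 2.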

How the data were processed

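The deposited table gives RSEM expected counts, TPM and FPKM per gene and library. The authors' expected counts, deposited without normalisation, are RSEM estimates (69.4% whole numbers), and for 23 of the 31 members they were whole in every library. TPM values were scaled to length by the authors, and FPKM values, deposited per gene length and library size, were not used. The submitters' processing notes name RSEM 1.2.12, HISAT2 2.0.4, Bowtie2 2.2.5 and build GRCm38.p6. The sources used here name neither a library kit, a strand setting nor an annotation.

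Of 17921 genes, 17787 matched RefSeq by gene ID, and 23 symbols turned into dates were restored. Counts were rounded, filtered with filterByExpr (minimum count 10, minimum total 15), scaled with TMM and tested by quasi-likelihood, with genotype as the only term, in edgeR 4.0.16 under R 4.3.3. P-values were adjusted by Benjamini and Hochberg over 12680 genes, with a threshold of 0.05. The residual degrees of freedom were 2. Alternatives used DESeq2 1.42.0 and limma 3.58.1 (log2 of TPM plus a pseudocount of 1), other scalings, no filter, a replicate block and leaving out each library. The steps were tested on simulated data. Each library is a replicate because the labels give each its own mouse, and no library was a repeat deposit of another (chi-square per gene 59.1 between KO libraries and 7.22 between WT libraries).

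The members, lists and tests were chosen with earlier results of these data known. All 31 members are named, as are Mapkapk5 and, in each related list, up to 4 called genes with the smallest p. Some genes stand in more than 1 related list. The level of 1 gene among the markers is not reported here.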

Additional observations from a re-analysis of the deposited data

How the results depend on the processing

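In the full data 3 members were called higher and 0 lower, and over all genes 652 and 1043. Other scalings, no filter and limma gave between 2 and 4 members called higher, with Utp20 and Rrp9 among them each time. DESeq2 called 16 members higher, and over all genes 993 higher. Leaving out 1 library moved the members called higher between 1 and 26 and the members called lower between 0 and 1, the genes called higher between 209 and 2881 and the genes called lower between 450 and 3118. The cause was not tested. Over those 4 fits the median log2 fold change of the members lay between 0.32 and 0.93, and over the others between 0.65 and 0.78. With library size alone 51.5% of calls were higher, beside 38.5% with TMM, and the median of all genes was 0.12, beside 0.02. Il17a, not called in the full data, lay between -0.91 (without KO 1) and 0.52 (without KO 2) on the log2 scale when 1 library was left out, and was called at both ends. With the mouse number as a replicate block 21 members were called higher and 0 lower, and over all genes 1338 higher (10.6%) and 1597 lower. The labels do not say that a number marks shared animals or days, and the deviations of KO 1 and WT 1 from their genotype means correlated at 0.17 across genes, in 2 pairs. With 2 mice per genotype, the number of mice limits the precision, and depth was not tested as a limit.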

Other observations

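Of 16 genes of the exosome and its partners, which trim ribosomal RNA, 1 rose (median log2 fold change 0.24), beside 5.14% of all genes tested. Exosc9, a subunit of its ring, rose to 36.7 and 28.4 CPM in KO, against 19.998 and 19.4 CPM in WT (0.73, adjusted p = 0.0495, edgeR), and no gene of the list was called without WT 1 or without WT 2. The median of the list was 0.11 without KO 1 and 0.42 without KO 2. None of 24 translation initiation genes was called by edgeR, with a median of 0.13. At an unadjusted p under 0.05, 3 were higher and 1 lower, beside 15.1% and 16.6% of all genes tested. DESeq2 called 1 higher and 1 lower, beside 7.66% and 10.1% of the genes it tested. The initiation median was 0.04 without KO 1 and 0.22 without KO 2.

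Free 5S particles of Rpl5 and Rpl11 hold back MDM2, the inhibitor of p53, when ribosome assembly fails. Of 9 genes of this link 1 rose, Ccng1, a p53 target, at 385 and 569 CPM in KO, against 158 and 181 CPM in WT (log2 fold change 1.49, adjusted p = 0.0153, edgeR). Of all genes tested 5.14% were called higher. The median of the list was 0.18, with 0.22 without KO 1 and -0.11 without KO 2, so its sign depended on the KO library. Mdm2 stood at 145 and 200.4 CPM in KO, against 105 and 108 CPM in WT (0.70, adjusted p = 0.0587). Rpl5 stood at 1246 and 1742 CPM in KO, against 1625 and 1833 CPM in WT, and Rpl11 at 668 and 1008 CPM in KO, against 914 and 947 CPM in WT, neither called. In all 4 genes KO 2 was the higher KO library, where KO 1 was the higher for all 31 members. Mdm2, Rpl5 and Rpl11 were named after their values were seen.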
